A study of Mus musculus with 6 samples.

Results

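Cytosolic ribosomal protein genes gave some of the most abundant messages of these T cells, and none passed the test for a change when PD1 or Lag3 was blocked before a second encounter with antigen. Members were the protein-coding genes whose symbols start with Rpl (large, 60S subunit) or Rps (small, 40S subunit), leaving out the S6 kinases and symbols marked as pseudogenes. Of 86 such genes, 84 had at least 10 reads over the 6 samples and formed the set, 50 of the large and 34 of the small subunit, out of 47643 genes in the count table. The paralogs Rpl3l, with 3 reads in all, and Rpl10l, with 0 reads, fell out at this step. Rps19bp1 entered by its symbol, although its product binds Rps19 and is not itself a ribosomal protein.

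CD4+ T cells came from spleens of Tg4 Tiger Nr4a3-Tocky mice. Tg4 is a transgenic T cell receptor for a myelin basic protein (MBP) peptide, Tiger is an Il10-GFP reporter, and Nr4a3-Tocky is a fluorescent Timer protein under Nr4a3 control that is blue when newly made and red once matured. All mice received 80 µg of 4Y MBP peptide, then after 24 h 800 µg of isotype control, anti-PD1 or anti-Lag3 antibody, and 30 min later 8 µg of peptide, and spleens were taken 4 h after that. Nr4a3-Blue+Red+ cells, the state taken to mark signalling in both rounds, were sorted, with 2 samples in each of the 3 groups. The sort limits the model to cells that responded again, cells were not followed one by one, and all mice carried the same receptor transgene. No untreated or singly immunized group was compared here, so the values say how the antibodies differ and not what immunization itself does to these genes.

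Ribosomal proteins clothe the ribosomal RNA of the 60S and 40S subunits and are needed in near equal numbers. Their mRNAs usually begin with a C followed by a run of pyrimidines, the terminal oligopyrimidine (TOP) motif, through which mTORC1 and the RNA-binding protein Larp1 set how well they are translated. T cells that meet antigen enlarge their ribosome pool before they divide, and much of that control lies in translation, which mRNA counts do not measure.

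The sequences around the annotated transcription start show which members carry a TOP-like run where it is usually found. RefSeq promoter sequences (GRCm38.p6) were matched for 64 of the 84 members. A C followed by at least 4 pyrimidines lay exactly at an annotated start in 14 of these 64 (21.9%). The share was 2.6% of 17428 other protein-coding genes and 3.0% of all 27025 genes with promoter sequences. A gene with more than 1 annotated start was counted if any of them matched. With the run allowed to start within 10 bases on either side, the share rose to 59.4% of the members. It was then 34.8% of the other genes and 34.4% of all genes with promoter sequences. Only the transcribed strand was searched. Each line gives 15 bases before and 15 bases from the annotated start, with the run in capitals. Rps6, Rpl28, Rpl15 and Rpl35 are shown because their values carry the comparisons that follow and the run begins at the start, Rplp2 because its run also begins there and its call depended on 1 library, and Rplp0 for contrast, since its window holds no such run.

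Rps6: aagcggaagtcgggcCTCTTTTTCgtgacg
Rpl28: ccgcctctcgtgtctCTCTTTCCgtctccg
Rpl15: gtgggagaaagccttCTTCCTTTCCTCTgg
Rpl35: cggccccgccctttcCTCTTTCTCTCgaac
Rplp2: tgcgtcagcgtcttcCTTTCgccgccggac
Rplp0: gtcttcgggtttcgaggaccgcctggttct

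These windows lie at chr4:86857353-86857382 on the minus strand for Rps6, at chr7:4792950-4792979 on the plus strand for Rpl28, at chr14:18270972-18271001 on the minus strand for Rpl15, at chr2:39005117-39005146 on the minus strand for Rpl35, at chr7:141447636-141447665 on the plus strand for Rplp2 and at chr5:115559452-115559481 on the plus strand for Rplp0. The match is of letters at an annotated start, which can differ from the start used in these cells.

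Libraries held 2107715 to 2648920 counted reads from 3′ mRNA sequencing, in which each transcript gives reads near its 3′ end, so CPM, the read count scaled to a common library size, were compared between genes without dividing by length. One gene, Gm42418, which overlaps ribosomal RNA sequence, took 17.35% to 21.0% of the counts. Gm42418 itself passed the test in edgeR, by -0.17 on the log2 scale for anti-PD1 over isotype (adjusted p = 0.0266). For anti-Lag3 over isotype it passed by -0.23 (adjusted p = 0.0161). That second call depended on the fit, as edgeR's newer quasi-likelihood method and a fit of the 4 samples compared called 0 genes. The isotype replicates of Gm42418 differed by 0.16 on the log2 scale. Its reads enter the total against which read shares are taken. The sorted cells carried the T cell markers Cd3e, Cd3d, Cd3g, Cd4, Lck and Cd28, all 6 of them detected, with a summed level of 1160 and 1265 CPM with isotype, 1041 and 1072 with anti-PD1 and 1337 and 1155 with anti-Lag3. The anti-PD1 samples were the lowest, and none of the 6 genes was called in edgeR, with a smallest adjusted p of 0.296 against isotype. Low levels of other lineages were present, and some differed with the group. The CD8 T cell markers Cd8a and Cd8b1 summed to 54.7 and 48.3 CPM with isotype, 34.5 and 29.8 with anti-PD1 and 33.7 and 32.7 with anti-Lag3. Neither gene was called in edgeR. The 5 erythroid markers summed to 50.4 and 44.7, 18.7 and 45.8, and 21.9 and 50.5 CPM in the same order, so the groups overlapped. The 7 B cell markers summed to 128 and 144 CPM in isotype samples, 66.6 and 60.5 with anti-PD1 and 89.0 and 131 with anti-Lag3, with 1 or 2 of the 7 at 0 in each library. The 6 macrophage markers summed to 54.2 and 47.9, 15.8 and 29.0, and 24.5 and 23.4 CPM in the same order, none of them at 0. Igkc, Ighm and C1qa were lower with anti-PD1 than with isotype in the test across all genes. Their part in the ribosomal protein values was not tested. Bulk counts cannot tell fewer cells of a type from less RNA per cell.

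Members were abundant in every sample. The median of the mean level was 574 CPM over the large subunit genes, from 2.17 to 3010, and 758 CPM over the small subunit genes, from 15.7 to 3041. Of the 77 genes that reached a mean of 1000 CPM, 26 were members, as were 33 of the 100 most abundant genes. The highest large subunit genes were Rplp1, an acidic protein of the stalk that recruits elongation factors, and Rpl23a, which lies at the exit of the peptide tunnel. Rplp1 measured 3288 and 2936 CPM in isotype samples, 2908 and 3000 with anti-PD1 and 2847 and 3078 with anti-Lag3. Rps20 led the small subunit, at 3021 and 3237 CPM with isotype, 2929 and 3022 with anti-PD1 and 2918 and 3122 with anti-Lag3. For both Rplp1 and Rps20 the 3 groups overlapped. Rpl23a ranged from 2093 to 2297 CPM over the 6 samples.

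**Figure D1:**
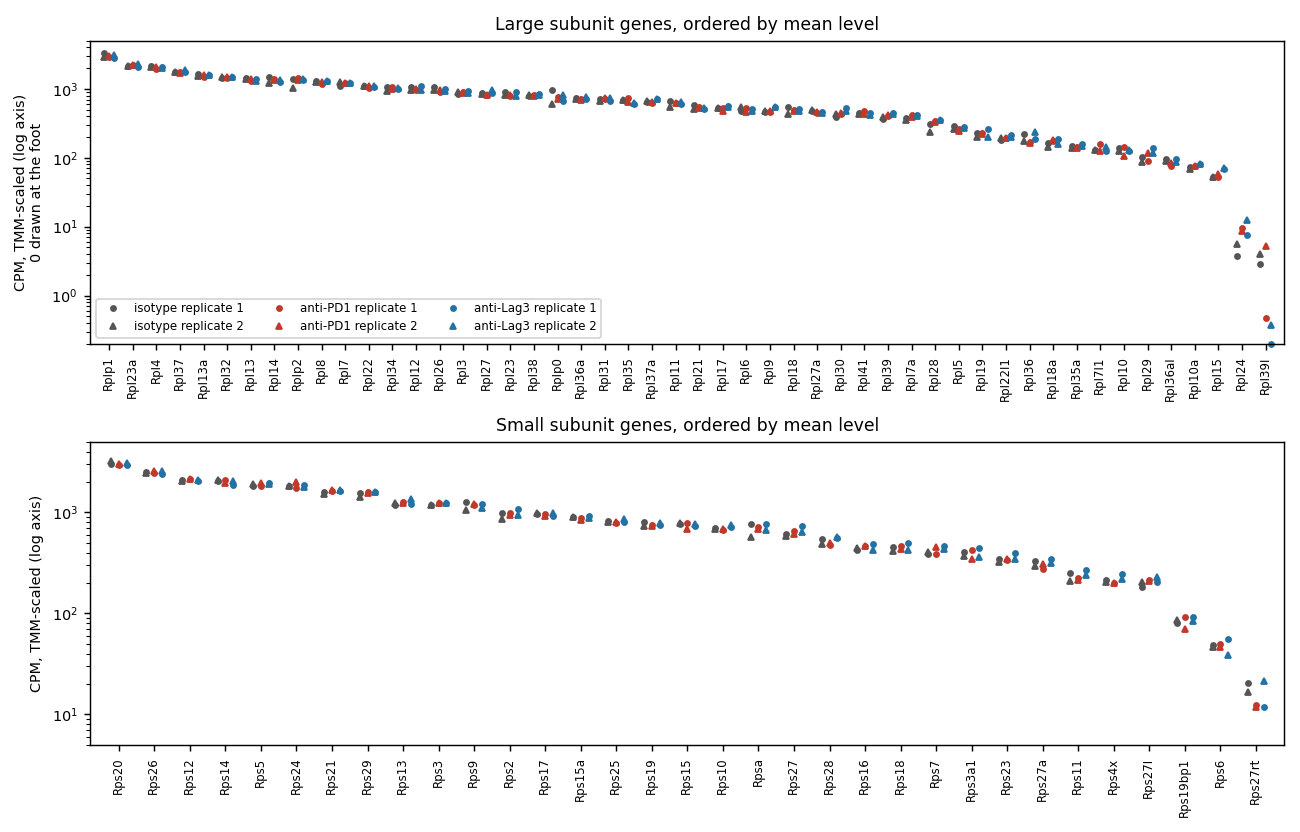
TMM-scaled CPM (log axis) of 50 large and 33 small subunit genes in each of the 6 samples, ordered by mean level, with color for the antibody and shape for the replicate. The 6 points of most genes lie on top of each other, and the samples spread most for the lowest genes, Rpl24, Rpl39l and Rps27rt.

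The marker members Rpl3, Rps6 and Rplp0 span much of this range. Rpl3, at chr15:80077791-80091868 on the minus strand, encodes a protein close to the peptidyl transferase centre. It measured 832 and 905 CPM with isotype, 888 and 874 with anti-PD1 and 917 and 868 with anti-Lag3. The isotype pair spanned both anti-PD1 values, and the log2 fold change of anti-PD1 over isotype was 0.02, with a 95% interval from -0.16 to 0.20.

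Rps6, at chr4:86854660-86857412 on the minus strand, encodes the small subunit protein phosphorylated by S6 kinase downstream of mTORC1. Its counts were low for a ribosomal protein gene, at 49.0 and 46.3 CPM with isotype, 49.8 and 46.2 with anti-PD1 and 55.2 and 39.0 with anti-Lag3. The anti-Lag3 pair spanned all the other values. Of the last 250 bases of its annotated transcript, 79.1% of the 50-base stretches also occurred in other annotated transcripts, so that its level is uncertain.

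Rplp0, at chr5:115559467-115563727 on the plus strand, encodes the base of the stalk and is often used as a reference gene. It measured 948 and 601 CPM in the isotype samples, 759 and 721 with anti-PD1 and 662 and 806 with anti-Lag3. The isotype replicates differed by 0.66 on the log2 scale, the largest gap within a group among members with at least 50 CPM, and they spanned the other 4 samples. The estimated log2 fold change was -0.06 (standard error 0.12) for anti-PD1 and -0.08 (0.12) for anti-Lag3.

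Replicates of most members lay closer together than this. For the 80 members with at least 50 CPM, the median gap between the replicates of a group was taken on the log2 scale. It was 0.095 with isotype, 0.059 with anti-PD1 and 0.096 with anti-Lag3. For 2978 other genes above that minimum, not matched in level, it was 0.140, 0.137 and 0.154. Rps3, a small subunit protein at the mRNA entry channel that was picked after its values were seen, measured 1196 CPM in both isotype samples, 1230 and 1237 with anti-PD1 and 1249 and 1248 with anti-Lag3. In the isotype group, 7 members with at least 50 CPM differed by over 0.3, and all 7 were higher in replicate 1. They were Rplp0, Rplp2, Rpsa, Rpl28, Rpl18, Rpl36 and Rpl11, a list made after their values were seen. Other genes past 0.3, and their direction, were not counted. Past a gap of 0.5 in the isotype group were 1 of the 80 members and 123 of the 2978 other genes.

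**Figure D2:**
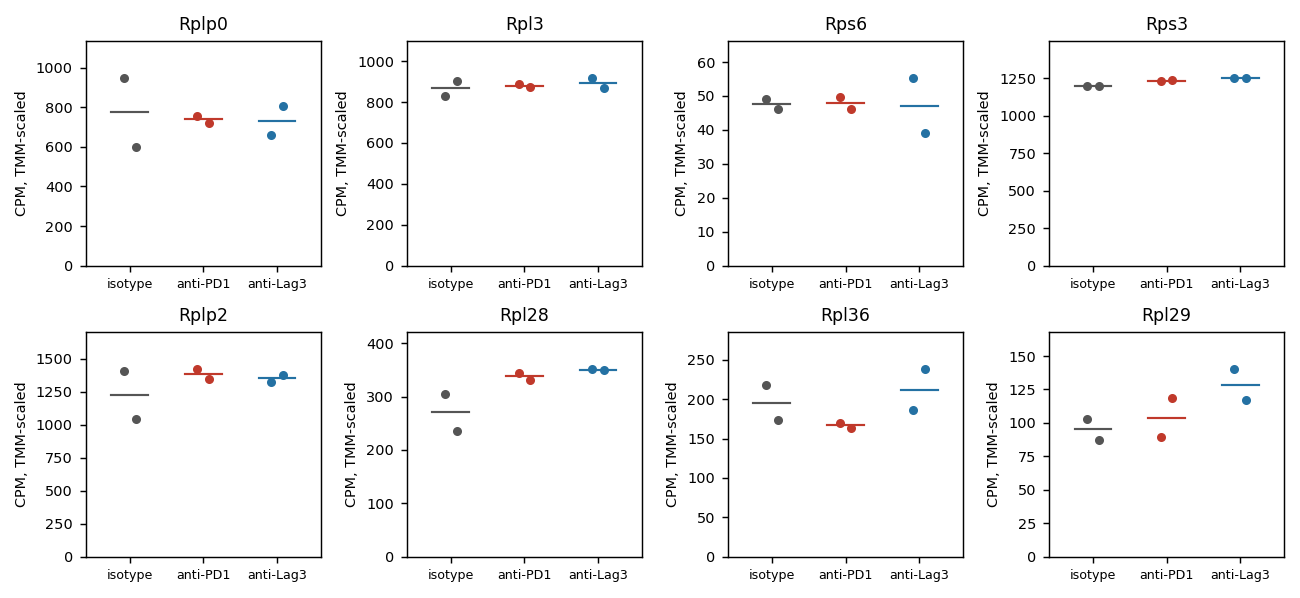
TMM-scaled CPM of 8 members by sample (linear axes from 0), with each point a sample and each bar the mean of 2. The isotype samples of Rplp0 lie at 948 and 601 CPM and enclose the other groups, whereas for Rpl28 both anti-PD1 and both anti-Lag3 samples lie above both isotype samples.

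To ask whether blocking PD1 changed these messages, anti-PD1 was compared with isotype. No member passed an adjusted p of 0.05 in edgeR's quasi-likelihood test (0 of 84, smallest adjusted p = 0.293), and 0.901% of 11877 tested genes passed. At an unadjusted p under 0.05 there was 1 member, Rpl28, beside 8.12% of all genes. DESeq2 and limma-voom called 0 members as well, with 1 and 2 at the unadjusted level. The median log2 fold change was -0.0024 over the large and 0.0082 over the small subunit genes, beside 0.0044 over all genes, and 25 of 50 and 18 of 34 estimates were above 0.

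The 95% intervals show how large a change each member could still have in this fit. For all 80 members with at least 50 CPM, the 95% interval of the anti-PD1 effect stayed within a 1.5-fold change in either direction. So did those of 78.8% of other genes above that minimum, which were not matched in level. Their median standard error was 0.159, beside 0.095 for the members. Over the 84 members the number was 81, the exceptions being Rpl24, Rpl39l and Rps27rt, which had few reads. The intervals are for single genes and rest largely on spread shared across genes. Each had 3 residual degrees of freedom and 37.2 borrowed from all genes. For Rplp0 the interval ran from -0.31 to 0.18, while leaving out each library gave estimates from -0.36 to 0.30.

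Rpl28, at chr7:4792874-4795066 on the plus strand, is a large subunit protein of eukaryotic ribosomes and had the largest positive estimate among members with at least 50 CPM. It measured 305 and 236 CPM with isotype, 345 and 331 with anti-PD1 and 351 and 349 with anti-Lag3. The treated samples did not overlap with the isotype samples, and the log2 fold change for anti-PD1 was 0.32 with a standard error of 0.12 (unadjusted p = 0.00825 and adjusted p = 0.293 in edgeR). Without isotype replicate 1, the isotype sample nearer to the treated ones, the estimate of Rpl28 was larger by construction and passed the test at 0.52 (adjusted p = 0.0439 in edgeR), with the lone isotype sample assumed to vary like the other groups, and so did Rplp2, a stalk protein, at 0.41 (adjusted p = 0.0248). Rplp2 measured 1408 and 1045 CPM with isotype, 1419 and 1350 with anti-PD1 and 1328 and 1378 with anti-Lag3, so that its isotype replicate 1 lay among the treated samples.

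The lowest estimate among large subunit genes was that of Rpl36, at chr17:56613416-56614243 on the plus strand. It measured 218 and 174 CPM with isotype, 170 and 164 with anti-PD1 and 186 and 238 with anti-Lag3, which gave -0.23 on the log2 scale for anti-PD1 (standard error 0.14, with an adjusted p of 0.731 in edgeR). The isotype and anti-PD1 samples did not overlap, while both anti-Lag3 samples lay above the lower isotype sample. Its 3′ end is shared with other transcripts over 86.6% of its 50-base stretches. Among small subunit genes with at least 50 CPM the extremes were Rps27l, a paralog of Rps27, at 0.12 (0.13), and Rps27a, which is made as a fusion with ubiquitin, at -0.11 (0.11).

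To ask the same of Lag3, anti-Lag3 was compared with isotype, against the same isotype samples. Again 0 of 84 members passed the adjusted threshold in edgeR (smallest adjusted p = 0.593), beside 0.0421% of all genes. At an unadjusted p under 0.05 there were 8 members, or 9.52%, 7 higher and 1 lower, beside 5.96% of all genes. Among members with at least 50 CPM there were 6 of 80, or 7.5%, beside 7.66% of other genes above that minimum. DESeq2 and limma-voom called 0, with 6 and 10 at the unadjusted level. Estimates leaned upward by a few percent, with medians of 0.0355 over the large and 0.0647 over the small subunit genes beside 0.0008 over all genes, and 32 of 50 and 25 of 34 above 0 beside 50.1% of all genes.

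For the large subunit the isotype replicates differed from each other by more than this lean, and for the small subunit by less. Relative to each gene's mean, the large subunit genes of the isotype samples had medians of 0.0317 and -0.045 on the log2 scale, and the anti-Lag3 samples 0.0332 and 0.0258. The small subunit medians were 0.0106 and -0.0319 with isotype and 0.0436 and 0.0238 with anti-Lag3. Isotype replicate 1 thus lay beside the anti-Lag3 samples for the large subunit. Leaving out each library in turn moved the median of the large subunit between -0.0068 and 0.075.

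The 8 members at the unadjusted level were Rpl28, Rpl29, Rpl30, Rpl9, Rpl15, Rpl24, Rps27 and Rpl39l. For Rpl28 the estimate on the log2 scale was 0.38 with a standard error of 0.12 (unadjusted p = 0.00249 and adjusted p = 0.593 in edgeR). Rpl29 had the largest estimate among members with at least 50 CPM, from 103 and 87.3 CPM with isotype to 140 and 117 with anti-Lag3, or 0.43 on the log2 scale with a standard error of 0.16 (adjusted p = 0.688 in edgeR). The Rpl29 groups did not overlap, but the anti-PD1 samples, at 89.1 and 119 CPM, differed from each other by 0.41 on the log2 scale. Rpl15 measured 52.3 and 52.7 CPM with isotype, 52.2 and 57.7 with anti-PD1 and 68.3 and 70.9 with anti-Lag3, with an adjusted p of 0.80 in edgeR for anti-Lag3.

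Among the small subunit genes Rps27 had the largest estimate at 0.21 (standard error 0.10), from 607 and 585 CPM with isotype to 739 and 645 with anti-Lag3. The lowest estimate of the large subunit among members with at least 50 CPM was that of Rpl35, a protein near the tunnel exit, at -0.16 (0.10). The 95% interval lay within 1.5-fold for 78 of the 84 members, beside 25.5% of all genes. The other members were Rpl15, Rpl28, Rpl29, Rpl24, Rpl39l and Rps27rt. With at least 50 CPM the number was 77 of 80 members, beside 82.9% of other genes, not matched in level. Median standard errors were 0.0945 for these members and 0.158 for those other genes.

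**Figure D3:**
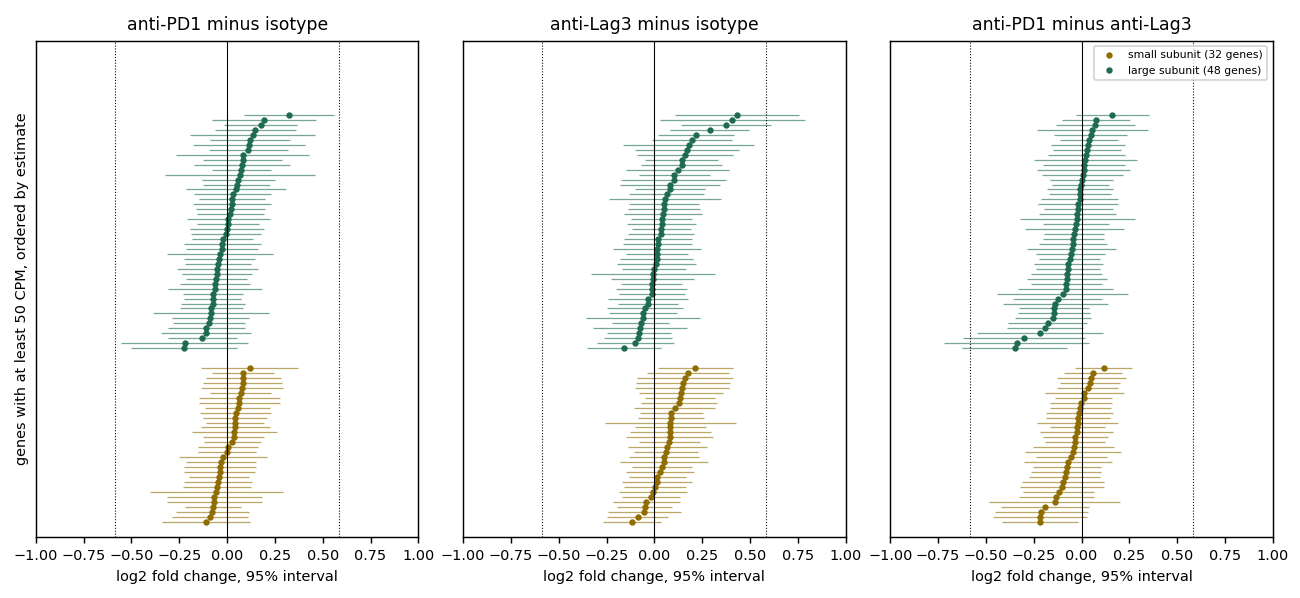
Log2 fold change (points) and 95% interval (lines) of the 80 members with at least 50 CPM, 48 of the large and 32 of the small subunit, in each comparison. Dotted lines mark a 1.5-fold change, which no interval crosses for anti-PD1 minus isotype and 3 cross in each of the other comparisons.

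The direct comparison of the antibodies, anti-PD1 minus anti-Lag3, called 0 of 84 members in edgeR (smallest adjusted p = 0.575), beside 0.303% of all genes. At an unadjusted p under 0.05 there were 3 members, Rpl36, Rps28 and Rpl39l, beside 6.53% of all genes. DESeq2, which gave an adjusted p for 81 members, and limma-voom called 0, with 3 and 4 at the unadjusted level. The medians were -0.0371 over the large and -0.0369 over the small subunit genes, beside -0.0025 over all genes, and 14 of 50 and 8 of 34 estimates were above 0 beside 49.6% of all genes. Rpl36 was lowest in the large subunit at -0.35 (standard error 0.14, unadjusted p = 0.0138, adjusted p = 0.575 in edgeR), and Rps28 was lowest in the small subunit at -0.22 (0.10), both among members with at least 50 CPM. Rpl35, at 0.16 (0.10), was the highest of the members with at least 50 CPM.

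Paralogs of ribosomal proteins differed widely in measured level, and none was called between antibodies. Rpl22, whose loss impairs the development of alpha-beta T cells, lay between 1022 and 1105 CPM in the 6 samples, and its paralog Rpl22l1 between 179 and 211. Rpl7 lay between 1117 and 1257 CPM and Rpl7l1 between 124 and 158. Rps27 ranged from 585 to 739 CPM, Rps27l from 181 to 229 and the retrogene Rps27rt from 11.8 to 21.5. Rpl36a, which is on the X chromosome, ranged from 698 to 772 CPM and its paralog Rpl36al from 75.2 to 97.4. As for Rps6, the ends of some of these transcripts also occurred in other annotated transcripts. The shared part was 100% for Rps27 and Rpl36a, 85.6% for Rps27rt, 75.1% for Rpl22l1, 67.7% for Rpl7 and 61.2% for Rpl36al. It was 22.9% for Rps27l, 3.0% for Rpl7l1 and 0.0% for Rpl22. Each pair held a gene with a largely shared end, so the differences between paralogs are uncertain.

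The X chromosome held 4 members. Besides Rpl36a these were Rpl39, at 364 to 442 CPM, Rps4x, at 199 to 243, and Rpl10, at 107 to 142. The shared part of the transcript end was 100% for Rpl10, 53.2% for Rps4x and 8.5% for Rpl39. The levels of Rpl10 and Rps4x are therefore uncertain. Rpl39l, a paralog of Rpl39 best known from testis, had 6 and 10 reads with isotype, 1 and 13 with anti-PD1 and 0 and 1 with anti-Lag3. The anti-PD1 replicates spanned the isotype values. So few reads give no usable fold change, although the gene is 1 of those counted at the unadjusted level above. Rps19bp1 ranged from 69.5 to 92.8 CPM.

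Other ribosomal genes, whose symbols the rule does not take, were not called either. Fau, which encodes Rps30 fused to a ubiquitin-like protein, lay between 295 and 335 CPM, and Rack1, a scaffold on the 40S head, between 1410 and 1578. Neither was called in any comparison, and the smallest adjusted p, that of Fau for anti-PD1 against anti-Lag3, was 0.94 in edgeR (unadjusted p = 0.293).

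As a share of all counted reads the members took 6.89% and 6.84% with isotype, 6.94% and 7.13% with anti-PD1 and 7.27% and 7.25% with anti-Lag3. The 3 groups did not overlap on this scale. With the reads of Gm42418 left out, the shares were 8.73% and 8.49%, 8.58% and 8.66%, and 8.94% and 8.78%, and isotype replicate 1 lay above both anti-PD1 samples. Of the reads of protein-coding genes the shares were 9.85% and 9.44%, 9.62% and 9.62%, and 9.95% and 9.73%, and isotype replicate 1 also lay above 1 anti-Lag3 sample. The separation of isotype from anti-PD1 was thus lost with either other denominator, while both anti-Lag3 samples stayed above the other 4 without Gm42418 but not among protein-coding reads. The exact 95% Clopper-Pearson interval, which covers counting error only, was 6.86% to 6.93% for isotype replicate 1 and 7.22% to 7.28% for anti-Lag3 replicate 2. With 2 samples against 2, an exact two-sided permutation test cannot go below p = 0.333.

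Reads of the large and small subunit genes stayed in a near constant proportion. The ratio of the summed reads was 1.13 and 1.09 with isotype, 1.09 and 1.09 with anti-PD1 and 1.09 and 1.11 with anti-Lag3. The isotype samples spanned all the others.

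**Figure D4:**
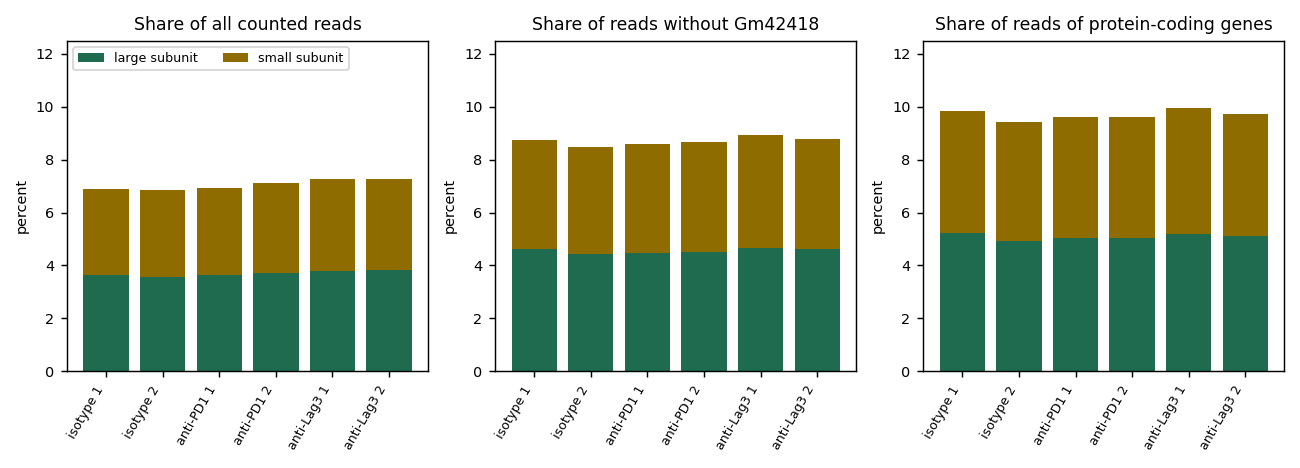
Percentage of reads taken by the large (green) and small (brown) subunit genes in each sample, of all counted reads, of reads without Gm42418 and of reads of protein-coding genes (bars from 0). In the first panel the 3 groups do not overlap, from 6.89% and 6.84% with isotype to 7.27% and 7.25% with anti-Lag3, whereas in the others isotype replicate 1 lies above both anti-PD1 samples.

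Genes that build, regulate or use ribosomes showed 0 calls at an adjusted p of 0.05 in edgeR in any of the 3 comparisons. These were 11 elongation factor genes, 32 initiation factor genes, 50 ribosome biogenesis genes, 25 genes of the mTORC1 and TOP pathway and 77 mitochondrial ribosomal protein genes. At an unadjusted p under 0.05 there were 0 to 4 genes in each list and comparison, and DESeq2 and limma-voom called 0 as well. For anti-Lag3 minus isotype the biogenesis genes had a median log2 fold change of -0.0885 with 15 of 50 above 0, beside 50.1% of all genes. At an unadjusted p under 0.05, 4 of the 50 were lower and 0 higher. Of all 11877 genes, 353 were lower and 355 higher, or 5.96% in either direction. Their summed level was 25306 and 24475 CPM with isotype and 22152 and 24915 with anti-Lag3, so the groups overlapped. Myc, a transcriptional activator of ribosome genes, measured 53.7 and 58.4 CPM with isotype, 56.5 and 51.9 with anti-PD1 and 54.0 and 52.0 with anti-Lag3. Its groups overlapped for anti-PD1, and the anti-Lag3 pair lay on both sides of the lower isotype sample.

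Within the mTORC1 and TOP list, calls appeared when a library was left out or the read minimum was lowered. A group left with 1 library is assumed in these fits to vary like the other groups. Eif4ebp1 measured 75.1 CPM in anti-Lag3 replicate 1 and 17.1 in replicate 2, beside 66.4 and 48.3 with isotype and 39.8 and 54.0 with anti-PD1. Anti-Lag3 replicate 2 thus lay below all other samples. Its estimate with all libraries was -0.33 for anti-Lag3 over isotype. Sesn2 measured 29.5 and 3.71 CPM in anti-Lag3 replicates 1 and 2, with an estimate of -0.19 for anti-Lag3 over isotype. Without anti-Lag3 replicate 1, the higher of the pair for both genes, their estimates over isotype were lower by construction. They were -1.75 for Eif4ebp1, a translation repressor that mTORC1 inactivates, and -2.32 for Sesn2, an inhibitor of mTORC1. Without that library both were higher with anti-PD1 than with anti-Lag3, Eif4ebp1 at 1.47 and Sesn2 at 2.45. Ddit4, another inhibitor of mTORC1, measured 51.4 and 78.9 CPM with isotype, 42.2 and 119 with anti-PD1 and 52.7 and 40.1 with anti-Lag3. Its anti-PD1 replicates differed by 1.48 on the log2 scale, and replicate 1 lay between the anti-Lag3 samples. The estimate for anti-PD1 over anti-Lag3 was 1.03 without anti-Lag3 replicate 1 and 1.36 without anti-PD1 replicate 1. It was 0.82 when genes with at least 1 read were tested (adjusted p = 0.0116 in edgeR). With all 6 libraries and the minimum of 10 reads none of these passed. These genes were named after their values were seen.

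Members were also split by the TOP-like run at the annotated start. Over 14 with the run the median log2 fold change was 0.0136 for anti-PD1 and 0.0802 for anti-Lag3 over isotype. Over 50 without it the medians were -0.0088 and 0.0428. For anti-Lag3, members with at least 50 CPM ranged from -0.16 to 0.41 with the run and from -0.099 to 0.22 without it. The difference between the sets was not tested.

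Annotation sets limits on the counting of these genes. Over the last 250 bases of the annotated transcripts, a median of 54.0% of the 50-base stretches of a member also occurred in transcripts of other genes, many of them processed copies, compared with 0.0% for 10184 other tested genes. At least 50% of the stretches were shared in 44 of 84 members and in 7.88% of the other genes. In 27 members none was shared, and Rplp0, Rplp2, Rpl28 and Rps20 were among them. The shared part was 84.1% for Rpl23a, 70.6% for Rpl3 and 58.7% for Rplp1, so that their levels are uncertain. In addition, 30 members held 58 small nucleolar RNA genes anywhere between their ends, introns included. Exons of 28 members overlapped exons of another gene on the same strand, as Rpl24 did with Gm28037. Reads from such overlaps cannot always be assigned.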

How the data were processed

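RNA from sorted Nr4a3-Blue+Red+ cells was sequenced as 3′ mRNA libraries. The authors aligned reads to mm10 (GRCm38) with STAR 2.5.2a and counted genes with HTSeq, and deposited whole-number counts, with strand setting and annotation release not given in the sources used here. Rlog values were not used. Gene IDs were matched to GRCm38 symbols (47224 of 47643). Genes with at least 10 reads over 6 samples were tested with edgeR 4.0.16 (R 4.3.3) under TMM scaling, in 1 quasi-likelihood fit of all samples with Benjamini-Hochberg adjustment, and DESeq2 1.42.0 and limma 3.58.1 were alternatives. CPM are TMM-scaled and intervals are 95%. Scripts were tested on simulated data. Replicates within a group differed beyond sampling noise (2.65 to 3.29 in chi-square over its degrees of freedom). The study's methods describe replicate mice stained individually, but the labels used here tie no sample to an animal or batch. The p-values thus rest on the spread between these samples, and largely on spread shared across genes. Each gene had 3 residual degrees of freedom and 37.2 borrowed from all genes.

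Members and lists were chosen with earlier results of these data known. Named genes were the 3 landmarks, the extremes of level, estimate and p, paralogs, genes of other ribosomal lists and Myc. The study left out a batch of replicates, which was not analysed here. A few items that the naming rule takes are not reported here.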

Additional observations from a re-analysis of the deposited data

How the results depend on the processing

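The count of members called stayed at 0 in 53 of 54 alternatives over the 3 comparisons (other tools, scalings, filters, a fit of 4 samples, the replicate block, an adjusted p of 0.1 and each library left out). The exception was anti-PD1 against isotype without isotype replicate 1, so that its range was 0 to 2. In the mTORC1 and TOP list, leaving out a library gave 0 to 2 calls for anti-Lag3 against isotype and 0 to 3 for anti-PD1 against anti-Lag3.

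Medians moved with the scaling and with single libraries. Under total count scaling they were 0.0339 (large) and 0.0452 (small) for anti-PD1 over isotype, 0.0966 and 0.1265 for anti-Lag3 over isotype, and -0.0619 (small) for anti-PD1 over anti-Lag3. This scaling moved all genes alike, to medians of 0.0421, 0.0623 and -0.0274 in these comparisons. Leaving out each library gave -0.0265 to 0.037 for the small subunit with anti-PD1, -0.0068 to 0.075 for the large and 0.0184 to 0.0752 for the small subunit with anti-Lag3, and -0.0615 to -0.0279 for the small subunit between the antibodies. Over members with under 50% of the 3′ end shared, an alternative added after seeing the data, the small subunit median with anti-PD1 was 0.0358. The cause was not tested.

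The share of reads changed with its denominator by construction. Without Gm42418 it was 8.73% and 8.49% with isotype, 8.58% and 8.66% with anti-PD1 and 8.94% and 8.78% with anti-Lag3. Of protein-coding reads it was 9.85% and 9.44%, 9.62% and 9.62%, and 9.95% and 9.73%. A planned share with further genes added is not reported here.

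Of 936 alternative estimates for 26 named members, 67 changed sign, and none of these 67 passed the threshold in the reported or the alternative fit. Leaving out each library, the log2 fold change of anti-PD1 over isotype ranged from -0.36 to 0.30 for Rplp0, -0.0362 to 0.0822 for Rpl3, -0.043 to 0.0628 for Rps6, -0.15 to 0.0115 for Rplp1, -2.85 to 0.63 for Rpl39l (fitted on few reads), -0.10 to 0.32 for Rpl29, -0.10 to 0.0919 for Rpl35, -0.10 to 0.0061 for Rpl22, -0.0685 to 0.0175 for Rpl36a, -0.0518 to 0.12 for Rpl7, -0.0696 to 0.28 for Rpl7l1, -0.30 to 0.11 for Rpl10, -0.27 to 0.13 for Rps19bp1. The other sign changes there were -0.0012 for Rps6 (under upper quartile), -0.003 for Rpl35 (in DESeq2), -0.0027 for Rpl35 (under DESeq2 size factors), -0.0112 for Rpl35 (under upper quartile), 0 for Rpl35 (under the replicate block), 0.0102 for Rpl36a (under total count scaling). For anti-Lag3 over isotype the ranges were -0.37 to 0.29 for Rplp0, -0.0177 to 0.10 for Rpl3, -0.29 to 0.22 for Rps6, -0.15 to 0.0156 for Rplp1, -0.0247 to 0.10 for Rpl23a, -0.63 to 0.23 for Rps27rt, -0.0595 to 0.29 for Rpl36, -0.0081 to 0.17 for Rps27a, -0.094 to 0.0828 for Rpl36al, -0.0453 to 0.12 for Rpl7, -0.0278 to 0.14 for Rpl7l1, -0.14 to 0.0251 for Rpl10, and total count scaling gave 0.0418 for Rps6, 0.01 for Rps20, 0.0471 for Rpl22, 0.0565 for Rpl36al, 0.0017 for Rpl10. For anti-PD1 over anti-Lag3 the ranges were -0.12 to 0.15 for Rplp0, -0.0666 to 0.0258 for Rpl3, -0.21 to 0.30 for Rps6, -0.0557 to 0.0448 for Rplp1, -0.0237 to 0.10 for Rpl23a, -0.0653 to 0.0196 for Rps20, -0.82 to 0.0323 for Rps27rt, -0.12 to 0.0353 for Rps27l, -0.0898 to 0.0199 for Rpl22, -0.0228 to 0.0051 for Rpl7, -0.13 to 0.22 for Rpl7l1, -0.24 to 0.17 for Rpl10, -0.35 to 0.0494 for Rps19bp1, and total count scaling gave -0.0135 for Rplp0. The cause was not tested.

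Deviations of same-numbered replicates correlated at 0.021, 0.018 and -0.01 between the groups over all 11877 genes, and at 0.264, 0.177 and 0.221 over the 84 members. With 2 numbers and no label that ties a number to a batch or animal, the numbers were not taken to pair the samples. Between same-numbered samples, anti-Lag3 minus isotype medians were 0.0015 and 0.0708 for the large and 0.033 and 0.0557 for the small subunit, and anti-PD1 minus anti-Lag3 medians were -0.0408 and -0.0365, and -0.0406 and -0.0469. With the replicate block the fit called 0 members in each comparison, and 144, 6 and 46 of all genes, beside 107, 5 and 36 without it. At 2 samples per group and 2107715 to 2648920 reads per library, changes in Rpl24, Rpl39l and Rps27rt were not resolvable.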
